A study of Rattus norvegicus with 19 samples.

Results

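Vim, Cd44, Stat3, Lgals3, Timp1, Chi3l1, A2m, Fabp7, Osmr and Gap43 form a list of genes tied to reactive gliosis and to the acute phase response, 10 of the 12978 genes that the annotation names on the Illumina RatRef-12 array. Each gene was read from the probe that carries its symbol, and every one of them had 1 such probe. A probe was tested if all arrays of 1 or more groups gave it a detection p under 0.05, and 9 of the 10 genes and 10718 of the 22517 probes met this, whereas Osmr did not. A2m, Fabp7, Chi3l1, Lgals3 and Timp1 were also followed up in the study from these same arrays, so the direction of these genes is not independent evidence.

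The arrays came from male Sprague-Dawley rats, 1 array per rat. The insulin-treated diabetic group held 7 rats given 65 mg/kg streptozotocin (STZ), a toxin of the insulin-producing beta cells, and then 26 mg subcutaneous insulin pellets from week 6 of diabetes. The diabetic group held 5 rats given STZ at the same dose and no insulin, and the non-diabetic control group held 7 rats given the vehicle alone. All retinas were taken at month 3, whole and with the pigment epithelium, after the lens and vitreous had been removed, and the arrays lay on 2 BeadChips that each carried all 3 groups. Diabetes here is the chemically induced loss of beta cells and not an inherited form, and the study dropped some diabetic and insulin-treated arrays for their technical quality.

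In the retina, Müller cells and astrocytes answer injury with reactive gliosis, in which they enlarge, build more intermediate filament and alter what they secrete. Cytokines of the interleukin-6 family act through receptors such as the oncostatin M receptor (Osmr) and the shared subunit gp130, and these activate the transcription factor Stat3. Stat3 is the factor through which interleukin-6 switches on acute phase genes in the liver, A2m being the classical example in the rat. Vim encodes vimentin, an intermediate filament protein of glia that lens cells also make in quantity, and Gfap, the usual marker of gliosis, was not analysed here because no probe carried its name.

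The arrays were alike in depth, with a mean non-normalized signal between 307 and 475 and a Pearson r between arrays of a group of 0.962 to 0.991. Rod photoreceptor genes were bright on every array, with a mean log2 signal of 12.4 to 12.9 over 11 genes. Lens genes set some libraries apart. The mean log2 signal of 10 tested lens genes (10 of 21 listed, most of them crystallins) ran from 5.88 to 9.01 in the insulin-treated rats, from 8.12 to 12.2 in the diabetic rats and from 6.45 to 10.7 in the controls. None of the 10 genes was under a signal of 10 on all arrays of a group. Insulin-treated rat 3 had the highest lens signal of its group, diabetic rat 3 the lowest and diabetic rat 4 the highest of theirs, and controls 1 and 3 (6.45 and 7.18) lay apart below the other 5 controls.

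The 10 genes fell into 3 patterns across the 19 rats. Stat3, A2m, Chi3l1 and Fabp7 were highest in diabetic rats 3, 4 and 5 and insulin-treated rats 3 and 6 of their groups, though for Stat3 insulin-treated rat 6 was only just above the next. Of these, Stat3, A2m and Chi3l1 were nearly constant in the controls (log2 SD 0.13, 0.080 and 0.12). Fabp7, with an SD of 0.23 there, varied nearly as much as Cd44 (0.26). Vim, Cd44, Lgals3 and Timp1 were lowest on average in the insulin-treated rats, varied among the controls too, and Vim, Lgals3 and Timp1 tracked the lens genes. Gap43 was level in all 3 groups, and Osmr lay near the background.

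**Figure D1:**
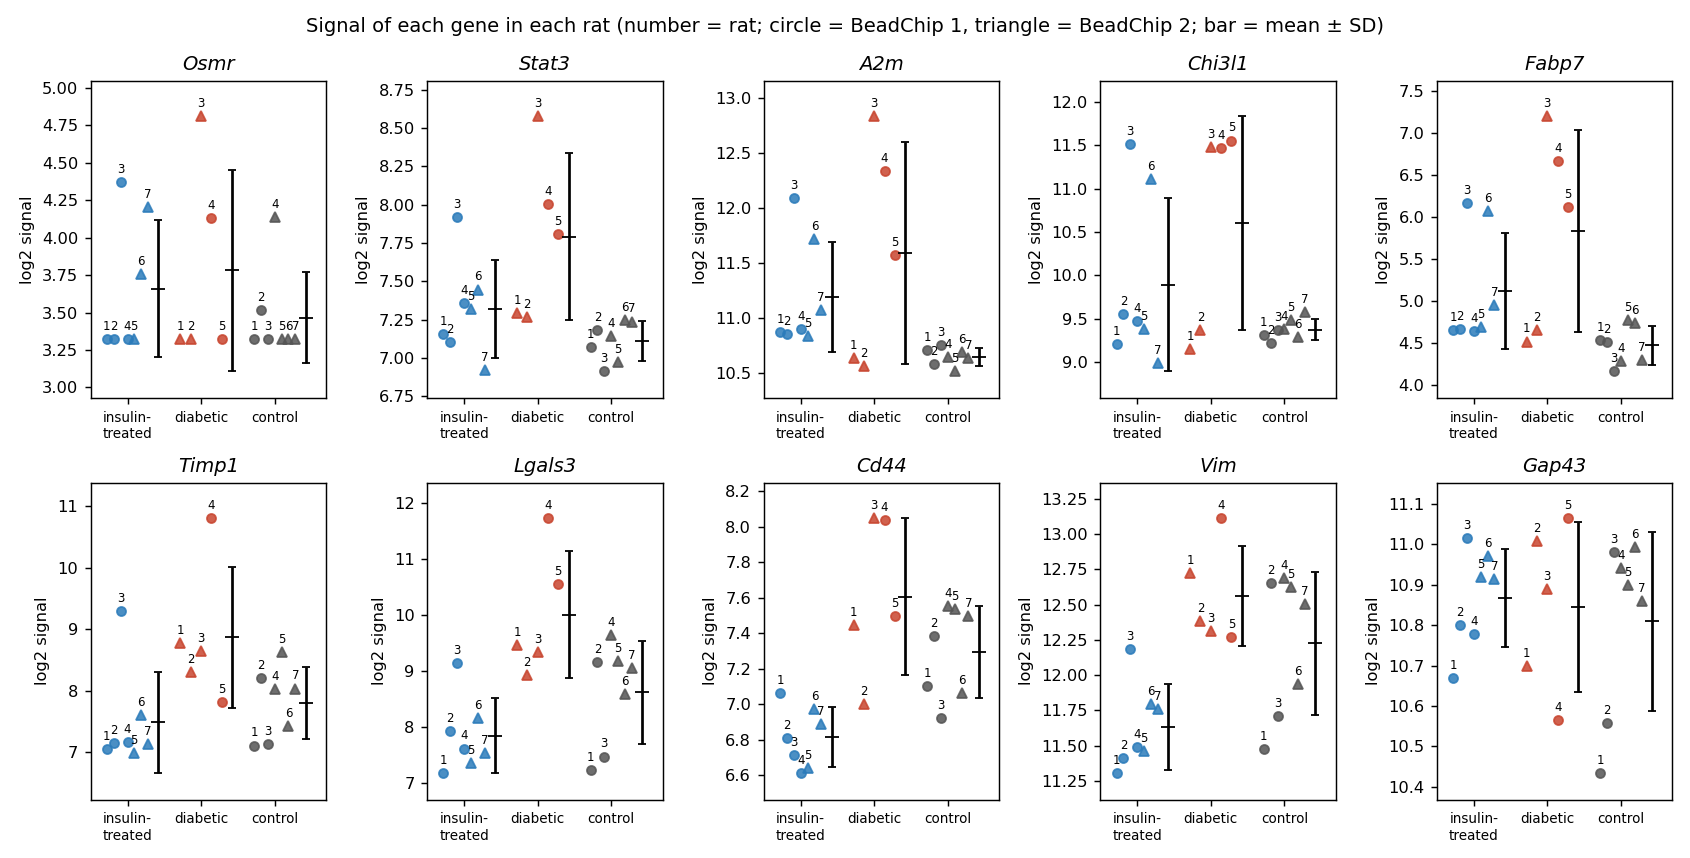
Log2 average-normalized signal of the 10 genes (signals under 10 set to 10) in each rat, in insulin-treated diabetic, diabetic and control groups from left to right. Circles stand for BeadChip 1, triangles for BeadChip 2, numbers for the rat within its group, and the bar gives the mean and SD (n = 7, 5 and 7). Diabetic rats 3, 4 and 5 and insulin-treated rats 3 and 6 stand above the rest of their groups for A2m, Chi3l1 and Fabp7, and for Stat3 insulin-treated rat 6 lies close to rats 4 and 5.

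RefSeq promoter sequences (build GRCr8) were at hand for 7 of the 10 genes: Vim, Cd44, Stat3, Timp1, Chi3l1, Fabp7 and Osmr. They were searched on both strands for the STAT motif TTCNNNGAA, its stricter form TTCCNGGAA, the AP-1 motif TGANTCA and the C/EBP motif TTGCNNAA. The stricter STAT motif lies within the first, and none of the others contains another. Of 33469 rat promoters of the same length, 300 bases, 8.87% held the STAT motif, 1.27% the stricter form, 7.33% the AP-1 motif and 10.6% the C/EBP motif. Among the 7 promoters the only match was an AP-1 motif in Osmr, 33 bases before the gene's start. A lack of match says only that these letters are not in these windows. The promoters of the 3 genes that moved with the rats in the first pattern and had a sequence, and that of Osmr, are given 5′ to 3′ on the strand of the gene, with the motif match in capitals.
Stat3 (chr10:86363310-86363609, minus strand): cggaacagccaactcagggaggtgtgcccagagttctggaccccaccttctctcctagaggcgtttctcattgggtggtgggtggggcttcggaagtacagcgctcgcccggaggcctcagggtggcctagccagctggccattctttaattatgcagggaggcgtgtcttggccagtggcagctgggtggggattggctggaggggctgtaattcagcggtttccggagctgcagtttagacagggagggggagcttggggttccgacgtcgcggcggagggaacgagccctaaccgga
Chi3l1 (chr13:48193589-48193888, plus strand): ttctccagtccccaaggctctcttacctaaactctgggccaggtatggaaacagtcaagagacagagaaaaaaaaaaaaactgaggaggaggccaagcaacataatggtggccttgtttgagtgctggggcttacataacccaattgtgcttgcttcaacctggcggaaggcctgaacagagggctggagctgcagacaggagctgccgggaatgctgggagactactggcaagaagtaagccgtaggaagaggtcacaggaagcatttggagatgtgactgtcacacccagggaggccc
Fabp7 (chr20:37669356-37669655, plus strand): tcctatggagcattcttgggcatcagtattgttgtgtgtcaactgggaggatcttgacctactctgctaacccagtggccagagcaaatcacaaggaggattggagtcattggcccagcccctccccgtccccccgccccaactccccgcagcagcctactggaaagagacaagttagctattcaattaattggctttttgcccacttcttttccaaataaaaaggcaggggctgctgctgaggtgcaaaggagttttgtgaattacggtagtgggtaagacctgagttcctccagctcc
Osmr (chr2:57688512-57688811, minus strand): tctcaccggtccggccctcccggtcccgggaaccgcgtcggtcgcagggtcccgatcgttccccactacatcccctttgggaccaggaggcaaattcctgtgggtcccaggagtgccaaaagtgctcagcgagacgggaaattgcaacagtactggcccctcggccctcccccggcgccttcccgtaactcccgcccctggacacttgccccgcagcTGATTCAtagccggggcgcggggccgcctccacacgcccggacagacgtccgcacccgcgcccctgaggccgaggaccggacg

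Osmr, the receptor subunit that binds oncostatin M and signals with gp130, was too dim to test. Its signal was 1.98, 4.24 and 20.7 (lowest, median, highest) in the insulin-treated rats, 1.12, 7.93, 28.1, 17.5 and 3.28 in diabetic rats 1 to 5, and 3.66, 9.05 and 17.6 in the controls. It was detected on 2 of 7 insulin-treated arrays, 1 of 5 diabetic arrays and 0 of 7 control arrays, and the groups overlapped. Whether Osmr differed between the groups could not be measured, so the AP-1 match in its promoter has no result to stand beside.

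Stat3, the transcription factor downstream of that receptor family, was higher in every diabetic rat than in any control. Its signal in diabetic rats 1 to 5 was 157, 154, 382, 257 and 224, against 121, 142 and 152 in the controls (lowest, median, highest). The 2 groups did not overlap, as was so for a higher signal in diabetic rats at 0.774% of all tested probes, although rats 1 and 2 exceeded the highest control by little. The difference was 0.68 on the log2 scale (SE 0.19, limma, adjusted p = 0.0565), a 1.60-fold difference, and it was 0.85 on BeadChip 1 and 0.56 on BeadChip 2. With the lens genes as a covariate it was 0.64 (adjusted p = 0.124). In the insulin-treated rats the Stat3 signal was 121, 160.1 and 242 and overlapped both other groups. Only rat 3, at 242, stood apart in that group, since rat 6 had 175 and rats 4 and 5 had 164 and 160.1. These rats differed from diabetic rats by -0.47 (SE 0.19, adjusted p = 0.113) and from controls by 0.21 (SE 0.17, adjusted p = 0.824). Without diabetic rat 3 the difference from diabetic rats was -0.28 (adjusted p = 0.254). In a bulk retina, more RNA per cell and more cells of a type cannot be told apart, here and for every gene that follows.

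A2m, which encodes the protease inhibitor alpha-2-macroglobulin, had the widest gap between the spread in diabetic rats and that in controls. Its signal was 1592 and 1514 in diabetic rats 1 and 2 but 7310.3, 5179 and 3045 in diabetic rats 3, 4 and 5, against 1461, 1596 and 1723 in the controls (lowest, median, highest). Rats 1 and 2 thus lay within the control range, and rats 3 to 5 well above it. The log2 SD was 1.01 in diabetic rats and 0.080 in controls, a ratio of 12.6, and the mean difference was 0.95 (SE 0.32, adjusted p = 0.101). The insulin-treated rats had 1828, 1903 and 4351, with 4351 in rat 3 and 3360 in rat 6. All 7 lay above the highest control, as at 0.0746% of tested probes (8 probes), but 5 of them by little, and the difference was 0.54 (SE 0.29, adjusted p = 0.640). Against diabetic rats they differed by -0.40 (SE 0.32, adjusted p = 0.449), with overlapping groups.

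Chi3l1 encodes a secreted chitinase-like glycoprotein that activated astrocytes and macrophages release. In diabetic rats 1 to 5 its signal was 570.1, 659, 2848, 2839 and 3007, against 597, 659 and 760.4 in the controls. The 3 high diabetic rats were close to each other, between 2.10 and 2.18 log2 units above the control mean, whereas rats 1 and 2 were at the level of the controls. Among the insulin-treated rats, 508, 711 and 2931 were the lowest, median and highest signals, with 2931 in rat 3 and 2212 in rat 6, so 2 of 7 rats reached or came near the level of the high diabetic rats. The mean difference of diabetic from control rats was 1.23 (SE 0.47, adjusted p = 0.137), with 2.21 on BeadChip 1 and 0.57 on BeadChip 2, where rats 1 and 2 lie. The mean of the insulin-treated rats differed from that of diabetic rats by -0.71 (SE 0.47, adjusted p = 0.340) and from that of controls by 0.52 (SE 0.43, adjusted p = 0.824).

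Fabp7 encodes the brain fatty acid binding protein of radial glia and of young astrocytes. It was the dimmest of the tested genes and showed the same rats. It was detected on 6 of 7 control arrays and on every array of the 2 diabetic groups. It was thus tested only through the groups where it was higher. Its signal was 22.9 and 25.3 in diabetic rats 1 and 2 and 147, 102 and 69.7 in diabetic rats 3, 4 and 5, against 17.9, 22.8 and 27.3 in the controls. In the insulin-treated rats it was 24.9, 25.9 and 72.0, with 72.0 in rat 3 and 67.3 in rat 6. Diabetic rats differed from controls by 1.36 (SE 0.40, adjusted p = 0.0678) on the log2 scale after signals under 10 were set to 10. For so dim a gene the size moved with the handling of low signals. It was 0.61 with signals under 50 set to 50 (adjusted p = 0.115), 0.64 with median-centred non-normalized signals (adjusted p = 0.0693) and 0.81 after normexp and quantile normalization (adjusted p = 0.0478). With signals under 10 set to 10, insulin-treated rats differed from diabetic rats by -0.71 (SE 0.40, adjusted p = 0.264). The insulin-treated rats were all above the control mean, with a difference of 0.65 (SE 0.37, adjusted p = 0.669).

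**Figure D2:**
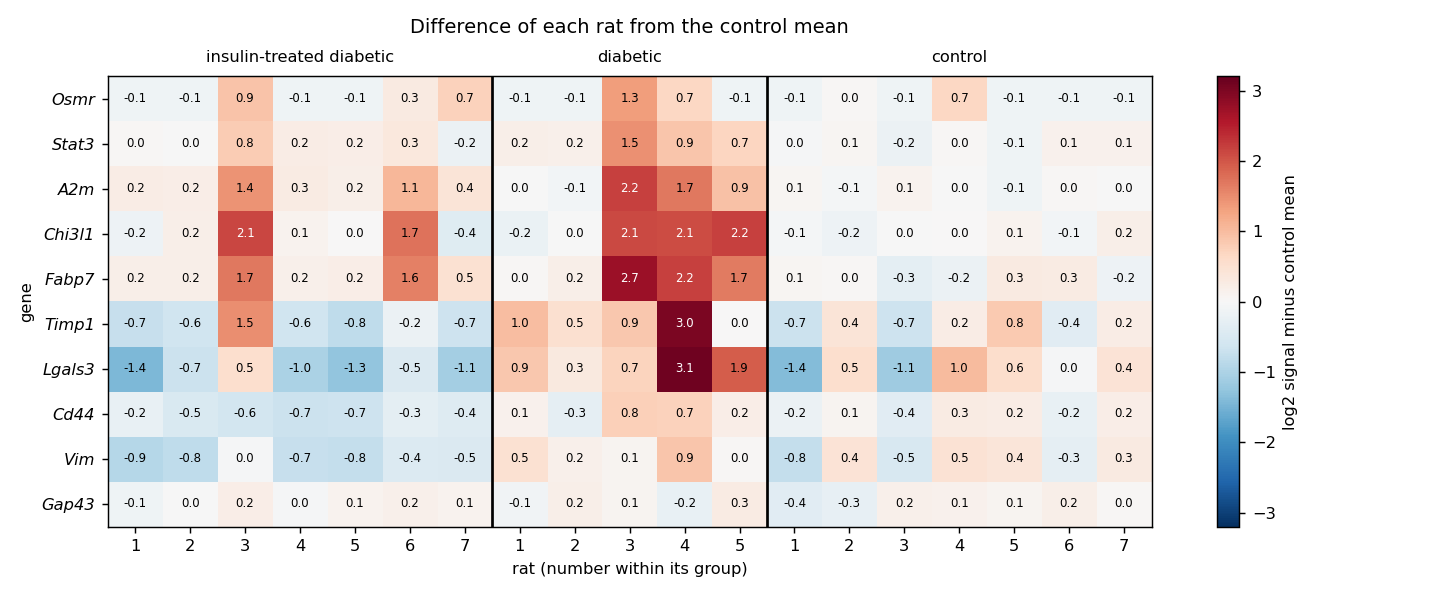
Log2 signal of each gene in each rat minus the mean of the controls, with insulin-treated diabetic, diabetic and control rats from left to right and 1 column per rat. Red is above and blue below the control mean. A2m, Chi3l1 and Fabp7 are red in diabetic rats 3, 4 and 5 and insulin-treated rats 3 and 6, while Vim, Lgals3 and Timp1 are blue in controls 1 and 3 and in most insulin-treated rats.

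The same rats thus had the highest values of Stat3, A2m, Chi3l1 and Fabp7 in both diabetic groups, by a narrow margin for Stat3 in insulin-treated rat 6. Diabetic rats 3, 4 and 5 above rats 1 and 2, together with insulin-treated rats 3 and 6 above the other 5, was the order of these 4 genes and of 1.55% of all tested probes (166). The order was read from the values of these genes and is a description with no test. The high rats lay on both BeadChips, with diabetic rats 4 and 5 and insulin-treated rat 3 on BeadChip 1 and diabetic rat 3 and insulin-treated rat 6 on BeadChip 2. The log2 SD of diabetic rats over that of controls was 10.4 for Chi3l1, 5.17 for Fabp7 and 4.20 for Stat3, beside the 12.6 of A2m, and a ratio over 4 occurred at 3.46% of tested probes. For insulin-treated rats over controls it was 8.43 for Chi3l1, 6.31 for A2m, 2.99 for Fabp7 and 2.46 for Stat3, and 0.886% of tested probes had a ratio over 4.

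In the diabetic rats the lens genes did not follow this order, whereas insulin-treated rats 3 and 6 also had the 2 highest lens means of their group (9.01 and 7.70, with 7.64 next in rat 4). Diabetic rat 3, with the highest Stat3, A2m and Fabp7 signals, had the lowest lens mean of its group (8.12), and diabetic rat 1, at the control level of A2m, had 11.1. Across controls whose lens mean differed by more than 4 log2 units, A2m stayed between 1461 and 1723. With the lens covariate the difference of diabetic from control rats was 0.91 for A2m (SE 0.36, adjusted p = 0.186), 1.01 for Chi3l1 (SE 0.50, adjusted p = 0.302) and 1.24 for Fabp7 (SE 0.44, adjusted p = 0.152). Microglia and leukocyte genes (7 tested of 20 listed) moved with some of these rats. Their mean log2 signal was 5.53 to 6.75 in insulin-treated rats, with the highest in rat 3, 5.50 to 7.32 in diabetic rats, with the highest in rat 4, and 5.45 to 6.11 in controls. None of these genes was under a signal of 10, and their part in the result was not tested. Diabetic rats 2 and 3 had the lowest array weights in limma (0.340 and 0.336, against 0.515 to 1.84 on the other arrays). Without both, the difference from controls was 0.59 for Stat3, 0.87 for A2m, 1.35 for Chi3l1 and 1.30 for Fabp7, and none had an adjusted p under 0.117.

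Over all members, 0 of the 9 tested genes passed an adjusted p of 0.05 between diabetic and control rats in limma, where 2.79% of all tested probes did (95 higher and 204 lower). At an unadjusted p of 0.05, 6 of 9 were higher (Stat3, Fabp7, A2m, Lgals3, Chi3l1 and Timp1), against 5.36% of tested probes, and 0 were lower. Fabp7 is counted here although it met the detection filter only through the diabetic groups, so its higher signal is not independent of that filter. All 9 differences were positive, with a median of 0.95 beside -0.067 over all tested probes. Under quantile normalization, where 160 of 283 probes called were higher, Stat3 (0.75, adjusted p = 0.0373) and Fabp7 (1.43, adjusted p = 0.0485) passed. Stat3 also passed without diabetic rat 1 (adjusted p = 0.0371), without diabetic rat 2 (0.0460) or without insulin-treated rat 3 (0.0427), and Fabp7 without diabetic rat 1 (0.0316).

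Vim, Cd44 and Lgals3 fell in insulin-treated diabetic rats relative to diabetic rats. These were 3 of the 9 tested genes, and 10.4% of all tested probes passed in this comparison, 3.93% as lower and 6.49% as higher. At an unadjusted p of 0.05, 5 of 9 were lower, Timp1 and Stat3 being the other two, against 9.41% of probes. The median of the 9 differences was -0.71, beside 0.060 over all tested probes. Diabetic rats are shared by this comparison and the one with controls, so a diabetic rat with a high signal moves both.

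Vim had a signal of 2532, 2874 and 4666 (lowest, median, highest) in insulin-treated rats and of 6772, 5350.0, 5093, 8875 and 4938 in diabetic rats 1 to 5. The 2 groups did not overlap, as at 1.52% of tested probes in this direction, although the gap between 4666 in insulin-treated rat 3 and 4938 in diabetic rat 5 was narrow. The difference was -0.93 (SE 0.22, adjusted p = 0.0152), a 1.91-fold lower signal, with -1.09 on BeadChip 1 (adjusted p = 0.281) and -0.80 on BeadChip 2 (adjusted p = 0.0572). Controls had 2847, 5801 and 6613. Diabetic rats differed from them by 0.34 (SE 0.22, adjusted p = 0.399) and insulin-treated rats by -0.60 (SE 0.20, adjusted p = 0.283). Controls 1 and 3, with 2847 and 3347, lay at the level of the insulin-treated rats and were the controls of low lens signal. Control 6, with 3914, also lay within the range of the insulin-treated rats, although its lens mean of 9.54 was not low among controls.

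Cd44 encodes the hyaluronan receptor that reactive glia carry on their processes, also a receptor for osteopontin. Its signal was 97.9, 112 and 134 in insulin-treated rats and 174, 128, 265, 262 and 181 in diabetic rats 1 to 5. Only diabetic rat 2 lay within the range of the insulin-treated rats. The difference was -0.79 (SE 0.16, adjusted p = 0.00842), a 1.73-fold lower signal, with -0.97 on BeadChip 1 (adjusted p = 0.153) and -0.66 on BeadChip 2 (adjusted p = 0.133). Controls had 121, 167 and 188, so that diabetic rats differed from them by 0.31 (SE 0.16, adjusted p = 0.282) and insulin-treated rats by -0.48 (SE 0.15, adjusted p = 0.241). Cd44 kept the order of diabetic rats 3, 4 and 5 above 1 and 2, but insulin-treated rats 3 and 6 (105 and 126) were not its highest.

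Lgals3 encodes galectin-3, a lectin that binds beta-galactosides and is made by activated microglia, by macrophages and by reactive glia. Its signal was 145, 197 and 570.0 in insulin-treated rats and 711, 490.1, 646, 3412 and 1511 in diabetic rats 1 to 5. Insulin-treated rat 3, at 570.0, was the only one of its group to exceed a diabetic rat. The difference of -2.16 (SE 0.48, adjusted p = 0.0120) was the widest of the list, a 4.46-fold lower signal, with -3.18 on BeadChip 1 (adjusted p = 0.161) and -1.56 on BeadChip 2 (adjusted p = 0.0294). Controls had 150.3, 532 and 798. Diabetic rats differed from them by 1.39 (SE 0.48, adjusted p = 0.108), which was 3.19 on BeadChip 1, where diabetic rats 4 and 5 and controls 1 and 3 lie, and 0.13 on BeadChip 2. The insulin-treated rats differed from controls by -0.77 (SE 0.44, adjusted p = 0.673), with 6 of 7 below the control mean.

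Timp1, a secreted inhibitor of matrix metalloproteases, lay close to the threshold between insulin-treated and diabetic rats. Its signal was 127, 142 and 628 in insulin-treated rats, 439.8, 315, 401, 1794 and 225 in diabetic rats 1 to 5, and 138, 262 and 396 in controls. Diabetic rat 4 and insulin-treated rat 3 stood far above the others of their groups. Insulin-treated rats differed from diabetic rats by -1.39 (SE 0.45, adjusted p = 0.0556), by -1.69 without insulin-treated rat 3 (adjusted p = 0.0148), by -1.65 without diabetic rat 5 (adjusted p = 0.0312) and by -0.90 without diabetic rat 4 (adjusted p = 0.158). It also passed with a detection p under 0.01, after normexp and quantile normalization, with an intensity trend, with array weights and on BeadChip 2 alone, with adjusted p of 0.0468, 0.0456, 0.0439, 0.0388 and 0.0394 in that order. The difference of diabetic from control rats was 1.07 (SE 0.45, adjusted p = 0.182) and 0.59 without diabetic rat 4 (adjusted p = 0.414), and that of insulin-treated from control rats was -0.31 (SE 0.41, adjusted p = 0.920).

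**Figure D3:**
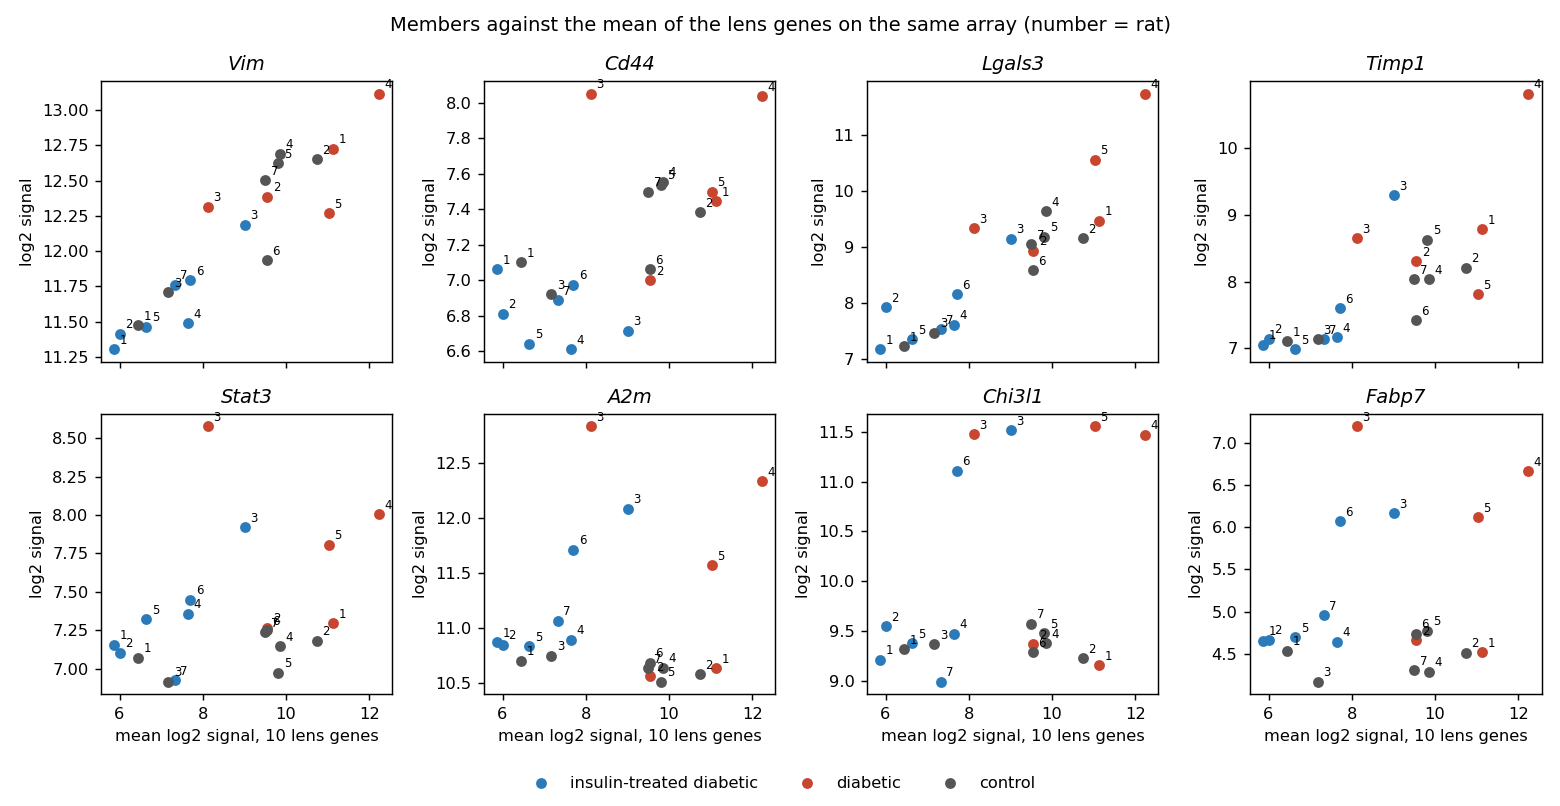
Log2 signal of 8 genes against the mean log2 signal of 10 lens genes on the same array, 1 point per rat, coloured by group and numbered by rat. Vim, Lgals3 and Timp1 run up with the lens mean from the insulin-treated rats and controls 1 and 3 to diabetic rat 4, whereas A2m, Chi3l1 and Fabp7 are flat but for diabetic rats 3, 4 and 5 and insulin-treated rats 3 and 6.

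Lens genes moved with these differences. Of 10 tested lens genes, 9 fell in insulin-treated relative to diabetic rats, against 3.93% of all tested probes, with a median difference of -3.22. Their median was 1.54 between diabetic and control rats, where 0 passed. With the lens mean of each array as a covariate, the difference of insulin-treated from diabetic rats was -0.15 for Vim (SE 0.18, adjusted p = 0.787), -0.65 for Cd44 (SE 0.23, adjusted p = 0.236), -0.44 for Lgals3 (SE 0.38, adjusted p = 0.681) and -0.11 for Timp1 (SE 0.49, adjusted p = 0.957). In that fit 2 probes of the whole array passed in this comparison, both higher in insulin-treated rats, against 1117 without the covariate. Lens signal and group largely coincide, since only diabetic rat 3 had a lens mean within the range of the insulin-treated rats. At its lens mean of 8.12, diabetic rat 3 had signals of 5093 for Vim, 265 for Cd44, 646 for Lgals3 and 401 for Timp1. Insulin-treated rat 3, with a lens mean of 9.01, had 4666, 105, 570.0 and 628 for the same genes. Without controls 1 and 3, Vim passed between insulin-treated and control rats (-0.85, adjusted p = 0.0130), and the difference of diabetic from control rats was 0.082 for Vim and 0.88 for Lgals3.

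**Figure D4:**
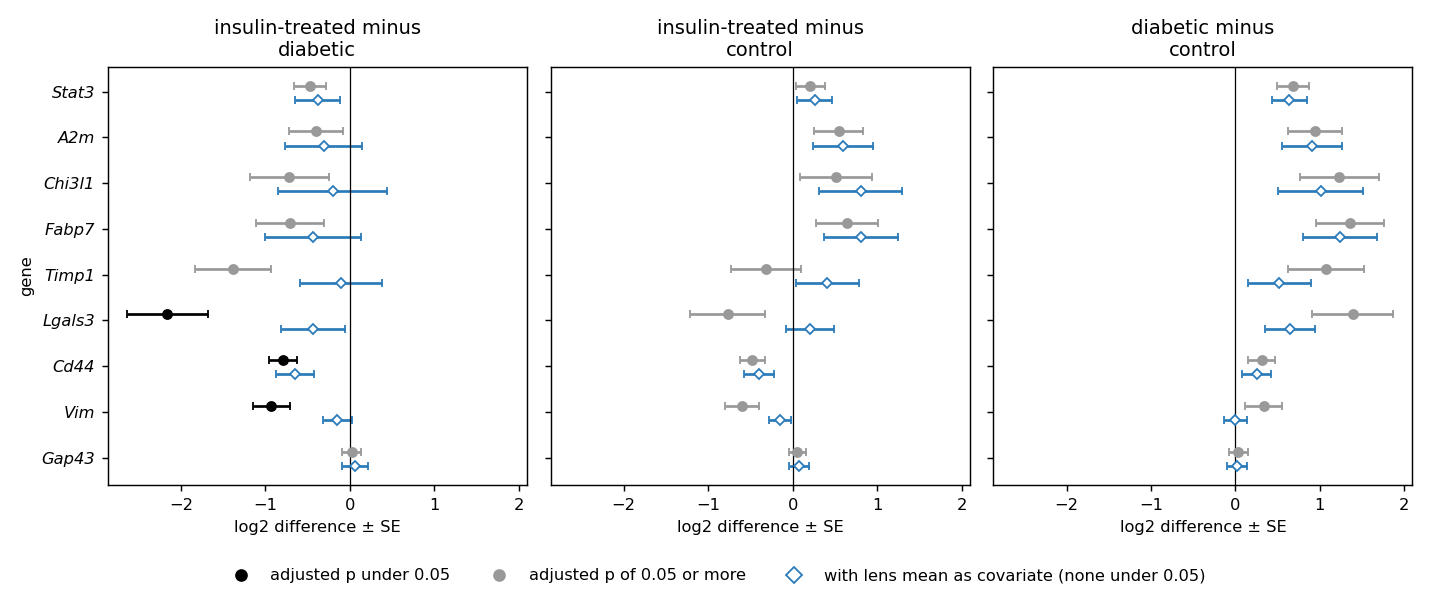
Log2 difference and SE of the 9 tested genes in insulin-treated minus diabetic, insulin-treated minus control and diabetic minus control rats, as circles for the model of the 3 groups (black where the adjusted p is under 0.05) and as open diamonds with the lens mean as covariate. Vim, Cd44 and Lgals3 are black in the first comparison, and the diamonds of Vim, Lgals3 and Timp1 lie nearer to 0 than their circles there.

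The genes whose log2 signals ran most like those of the 3 called genes over the 19 arrays were found by Pearson r. For Vim they were Plp2 (0.960), Slc66a3 (0.956) and Nxn (0.950). For Cd44 they were Cald1 (0.936), Hadh (0.877) and Tpm4 (0.875), caldesmon and tropomyosin 4 being actin-binding proteins. For Lgals3 they were Plp2 (0.937), S100a6 (0.932) and Bfsp1 (0.920), the last of which encodes a beaded filament protein of the lens. The arrays share their group differences and the lens signal, so these values describe likeness only.

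Gap43, a protein of growing axons and growth cones, differed least. Its signal was 1628, 1929.6 and 2068 in insulin-treated rats, 1662, 2058, 1896, 1514 and 2142 in diabetic rats 1 to 5, and 1384, 1908 and 2037 in controls. The 3 groups overlapped almost entirely. The differences were 0.022 for insulin-treated minus diabetic (SE 0.11, adjusted p = 0.920), 0.057 for insulin-treated minus control (SE 0.10, adjusted p = 0.949) and 0.036 for diabetic minus control rats (SE 0.11, adjusted p = 0.881).

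Between insulin-treated and control rats, 0 of the 9 tested genes passed in limma, where 1 probe of the whole array did (0.00933%). Vim and Cd44 were lower at an unadjusted p of 0.05, as were 6.1% of tested probes, and 0 members were higher. The median of the 9 differences was 0.057, beside -0.0046 over all tested probes, with Vim, Cd44, Lgals3 and Timp1 below 0 and the other 5 above. Both comparisons with controls share the 7 control arrays. For A2m the 2 differences from control were 0.54 in insulin-treated and 0.95 in diabetic rats, for Chi3l1 0.52 and 1.23, for Fabp7 0.65 and 1.36, and for Stat3 0.21 and 0.68.

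Other genes of these pathways were counted from lists that leave out the members. Of 11 tested genes of interleukin-6 family signalling (27 listed), which covers ligands, receptors, Jak kinases and their inhibitors, 0 passed in any of the 3 comparisons. Their median difference was -0.095 between diabetic and control rats, where all tested probes had -0.067, and Jak1, the kinase bound to gp130, differed by -0.011 (SE 0.087, adjusted p = 0.955). At an unadjusted p of 0.05, 1 was higher and 1 lower between insulin-treated and diabetic rats, where 9.41% of all tested probes were lower. Between insulin-treated and control rats 2 were lower, against 6.1% of probes, and 0 differed between diabetic and control rats. Jak3 is not counted among these 11 genes and was picked after its values were seen. It was higher in diabetic than in control rats by 0.93 (SE 0.30, limma, adjusted p = 0.0905), or 0.73 with the lens covariate (adjusted p = 0.230), and had the rat order of Stat3.

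Of 8 tested acute phase genes (30 listed) 0 passed in any comparison. At an unadjusted p of 0.05, 2 were higher (Cp and Lcn2) in diabetic relative to control rats, against 5.36% of all tested probes, and 1 was lower (Orm1). Agt had the next smallest p. Lcn2, the iron-scavenging lipocalin-2 of reactive glia, had 66.3, 88.1 and 2077 (lowest, median, highest) in insulin-treated rats, 209, 338 and 660 in diabetic rats and 56.4, 105 and 191 in controls. All diabetic rats exceeded all controls, as at 0.774% of all tested probes. The margin was narrow, with 209 as the lowest diabetic and 191 as the highest control signal. Lcn2 was named for its small p in this comparison, so this is no separate evidence. The difference was 1.64 (SE 0.65, adjusted p = 0.152). Cp, the copper-carrying ferroxidase ceruloplasmin, had 184, 291 and 990.0 in insulin-treated, 237, 744 and 2219 in diabetic and 204, 268 and 373 in control rats, a difference of 1.35 between diabetic and control rats (SE 0.50, adjusted p = 0.130). Both had the rat order of Stat3 and A2m. Orm1, the acute phase plasma protein alpha-1-acid glycoprotein, had 12.2, 16.8 and 31.9 in insulin-treated rats, 15.6, 23.8 and 26.0 in diabetic rats and 23.2, 30.8 and 48.9 in controls, a difference of -0.62 between diabetic and control rats (SE 0.24, adjusted p = 0.144). Agt, which encodes angiotensinogen, differed by -0.54 (SE 0.28, adjusted p = 0.283). Neither had that rat order.

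Of 19 tested genes of reactive astrocytes and Müller cells (34 listed), 4 fell and 1 rose in insulin-treated relative to diabetic rats, and 0 passed in the comparisons with controls. Over all tested probes 3.93% fell and 6.49% rose between insulin-treated and diabetic rats. Those that fell were S100a6 (-2.41, adjusted p = 0.0313), a calcium-binding protein, Hspb1 (-2.16, adjusted p = 0.0175), a small heat shock protein, Anxa2 (-1.10, adjusted p = 0.0171), a phospholipid-binding annexin, and Lgals1 (-0.96, adjusted p = 0.0178), galectin-1. Egr1, an immediate early transcription factor, rose by 1.78 (adjusted p = 0.0216). The list's median difference was -0.60 between insulin-treated and diabetic rats, beside 0.060 over all probes. The array means of the list were 6.19 to 7.06 in insulin-treated rats, 7.11 to 8.15 in diabetic rats and 6.32 to 7.44 in controls. Controls 1 and 3 were again the lowest of their group, and insulin-treated rat 3 and diabetic rat 4 the highest of theirs, as for the lens genes. Diabetic rats 1, 2, 3 and 5, however, had list means of 7.16, 7.12, 7.18 and 7.11, although their lens means ran from 8.12 to 11.1. Among those diabetic rats the list mean thus changed little with the lens mean, and the cause was not tested. With the lens covariate 0 of the 5 passed. The differences were then 0.19 for S100a6 (adjusted p = 0.907), -0.48 for Hspb1 (0.755), -0.33 for Anxa2 (0.682), -0.21 for Lgals1 (0.759) and 1.18 for Egr1 (0.445).

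Among 17 tested metalloproteases, their inhibitors and partners of Cd44 or galectins (27 listed), 3 fell in insulin-treated relative to diabetic rats, against 3.93% of all tested probes. They were Ezr (-0.89, adjusted p = 0.0169), which encodes ezrin, a linker of membrane proteins such as Cd44 to actin, Lgals1 again, and the metalloprotease gene Mmp11 (-0.69, adjusted p = 0.0304). None of this list passed against controls, and with the lens covariate Ezr (-0.37, adjusted p = 0.577) and Mmp11 (-0.73, adjusted p = 0.276) did not pass either. Mmp11 was dim and its groups overlapped. The insulin-treated rats and the controls may not have carried Mmp11 past the detection filter, so its fall may not be independent of that filter. Its signal was 15.8, 21.3 and 38.6 (lowest, median, highest) in insulin-treated rats, 25.3, 40.4 and 43.3 in diabetic rats and 18.2, 23.5 and 33.2 in controls. Of 10 tested fatty acid binding and growth cone genes (18 listed), Marcksl1, an actin regulator of growing neurites, rose in diabetic relative to control rats (0.39, adjusted p = 0.0172) and fell in insulin-treated relative to diabetic rats (-0.33, adjusted p = 0.0169). Atf3, a stress transcription factor, fell in diabetic relative to control rats (-1.31, adjusted p = 0.0398) and rose in insulin-treated relative to diabetic rats (1.27, adjusted p = 0.0224), and Jun rose in the second comparison (1.22, adjusted p = 0.0414). Of all tested probes, 2.79% passed in the first comparison and 10.4% in the second. With the lens covariate only the difference of Marcksl1 between diabetic and control rats passed (0.40, adjusted p = 0.0356). That of Atf3 was -1.20 there (adjusted p = 0.0996), and between insulin-treated and diabetic rats Marcksl1 had -0.36 (adjusted p = 0.204), Atf3 1.02 (adjusted p = 0.362) and Jun 1.10 (adjusted p = 0.393).

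Genes that Müller cells use at rest gave 1 call per comparison with diabetic rats among 9 tested (15 listed). Of all tested probes, 2.79% passed between diabetic and control rats and 10.4% between insulin-treated and diabetic rats. A single call among so few genes therefore says little about the list. Dbi, an acyl-CoA binding protein, rose in diabetic relative to control rats (0.35, adjusted p = 0.0485) and fell in insulin-treated relative to diabetic rats (-0.47, adjusted p = 0.00792). With the lens covariate these were 0.27 (adjusted p = 0.136) and -0.27 (adjusted p = 0.337). The list did not move as 1 between diabetic and control rats, with a median of -0.067, the same as over all tested probes. At an unadjusted p of 0.05 in limma, 2 genes were higher, against 5.36% of tested probes, and 2 were lower. These were Dbi and Clu (0.62, adjusted p = 0.0732) as higher, and Rgr (-1.38, adjusted p = 0.103) and Rlbp1 (-0.32, adjusted p = 0.118) as lower. The array means of the list overlapped, with 10.2 to 10.5 in insulin-treated rats, 10.3 to 10.7 in diabetic rats and 10.4 to 10.7 in controls. Of the microglia and leukocyte genes, C1qc, a complement subunit of microglia, fell in insulin-treated relative to diabetic rats (-1.03, adjusted p = 0.0471, and -0.40 with the lens covariate, adjusted p = 0.736). It was 1 of 7 tested, where 10.4% of all tested probes passed, so it too says little about its list. The lists of 2 astrocyte, 11 rod photoreceptor, 4 pigment epithelium, 5 endothelium and pericyte and 3 red blood cell genes tested held 0 calls in all 3 comparisons.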

How the data were processed

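Retinal mRNA of 19 rats was hybridised to Illumina RatRef-12 arrays, 1 array per rat. The authors used GenomeStudio (1.0.6, per the submitters' processing notes) to subtract background and to bring every array to the same mean, which is its average normalization. The deposited intensities are linear and come both with and without this step. The detection p-value of each probe was deposited with the signals and used as given. A further deposited table holds identical values for 22517 of 22517 probes. The annotation names 13259 probes and leaves 9258 unnamed.

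Signals under 10 were set to 10 before log2 values were taken. Probes for which all arrays of 1 or more groups had a detection p under 0.05 were tested with limma (version 3.58.1, R 4.3.3), with the 3 groups in 1 model and no covariate, and the Benjamini-Hochberg adjustment ran over all 10718 probes. A call is an adjusted p under 0.05. Scaling removes overall shifts between arrays, and subtraction makes dim signals uncertain. Where a gene had several probes, the one with the highest mean log2 signal was taken. Tables and figures were made with Python 3.11.15, pandas 2.3.3, numpy 2.4.6 and matplotlib 3.10.9.

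The text names every member, from each list the genes past the threshold and up to 4 others, by the smallest p between diabetic and control rats or, for Jak1, by the highest signal, and the 3 genes most like each called member. Members and lists were chosen with earlier results of these data known. The fit was tested on simulated data for diabetic against control rats, where 91.9% of 200 probes changed by 1 log2 unit among 10718 were recovered, with 9.4 false calls on average. The simulated noise was independent between probes and had the same spread in all groups. It therefore does not cover genes with a wider spread in diabetic rats, such as A2m, nor a signal shared by many genes, such as that of the lens genes. Alternatives covered the floor, the filter, the scaling, background correction, array weights, an intensity trend, the BeadChip, the replicate number, the lens genes, the methods' t-test and leaving out each array. Fits without the controls lowest in lens genes or without the arrays of lowest weight were added after the data were seen. The number of arrays limits the precision. Promoter sequences are those of RefSeq, build GRCr8.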

Additional observations from a re-analysis of the deposited data

Results flagged for a closer look

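Of the 30 sets made by 10 genes in 3 groups, 2 held a rat far from the others of its group, and chance alone gives about 1 in 20 such sets. Timp1 in insulin-treated rat 3 had a log2 signal of 9.30 (signal 628, BeadChip 1), with the next highest rat of the group at 7.60, so the gap took 0.736 of the group's range. Osmr in control 4 had a log2 signal of 4.14 (signal 17.6, BeadChip 2), with the next highest control at 3.52 and a gap of 0.762 of the range. On 5 of the 7 control arrays the signal of Osmr was set to the floor of 10, which fixes the lower end of that range. On the signals as deposited, where the next highest control had 11.4, the gap was 0.275 of the log2 range. Osmr was not detected on any control array.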

How the results depend on the processing

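Of 1023 values of single members under the alternatives, 975 kept direction and side of the threshold, 20 passed it, 9 no longer passed it and 19 changed sign, none of which passed it in the first place. Between diabetic and control rats 299 probes passed. The count was 107 with no filter, 147 with median-centred non-normalized signals (71 higher), 154 with the methods' t-test, 102 with only both groups, 9 on BeadChip 1, 0 on BeadChip 2, 119 with the lens covariate, 39 without the 2 controls lowest in lens genes, 61 without the 2 arrays of lowest weight and 1534 at an unadjusted p with a fold over 1.2. The 0 members called became 1 (Stat3) with a detection p under 0.01 or an intensity trend, 2 (Stat3 and Fabp7) with quantile normalization, alone or after normexp, and 6 at the unadjusted rule. Leaving out 1 array gave 99 to 393 probes and 0 to 2 members.

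Between insulin-treated and diabetic rats 1117 probes passed, against 595 with no filter, 347 with the t-test, 584 with only both groups, 8 on BeadChip 1, 355 on BeadChip 2, 2 with the lens covariate, 516 without the arrays of lowest weight and 2095 at the unadjusted rule. The 3 members became 0 on BeadChip 1 or with the lens covariate, 5 at the unadjusted rule, 2 in the t-test (Lgals3 had 0.0536), 2 on BeadChip 2 (Lgals3 and Timp1) and 4, with Timp1 added, with a detection p under 0.01, normexp, a trend or array weights. Vim and Cd44 passed on neither BeadChip alone. Leaving out 1 array gave 542 to 1494 probes and 3 to 5 members. Between insulin-treated and control rats the 1 probe became 0 with a floor of 50, a detection p under 0.01, no filter, median centring, a trend, the t-test, BeadChip 1 or the lens covariate, 2 with quantile normalization, 4 on BeadChip 2, 101 with array weights (where Cd44, 1 member, passed), 273 without the 2 controls (where Vim, 1 member, passed) and 655 at the unadjusted rule, with 2 members. Leaving out 1 array gave 1 to 17 probes and 0 members.

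Replicate numbers do not pair the rats (r of same-numbered deviations -0.244 to 0.273), and 0 of 5, 1 of 7 and 1 of 7 rats were most like their own number. With the replicate block 80, 482 and 0 probes and 0, 3 and 0 members passed in the order above.

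Sign changes were those of Vim between diabetic and control rats with the lens covariate (-0.0042), of Lgals3 and Timp1 between insulin-treated and control rats on BeadChip 1 (0.017 and 0.18) and with the lens covariate (0.21 and 0.41), and of Gap43. Gap43 was -0.058 on BeadChip 2, -0.0050 without the 2 controls, -0.033 without the arrays of lowest weight and -0.027 to 0.11 without 1 array between diabetic and control rats. It was -0.0079 and -0.0078 with quantile normalization, alone and after normexp, -0.017 with the replicate block and -0.048 to 0.077 without 1 array between insulin-treated and diabetic rats, and -0.0050 (without control 1) to 0.090 without 1 array between insulin-treated and control rats. The cause was not tested. Osmr has no test because its signal is near background.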

Other observations

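The order of rats seen for Stat3, A2m, Chi3l1 and Fabp7 (diabetic rats 3, 4 and 5 above rats 1 and 2, insulin-treated rats 3 and 6 above the other 5) was looked for in all tested probes after it had been noticed in these genes. It held for 124 named genes, and in 115 of them the 5 rats lay on average above the controls. The genes that follow were picked after their values were seen, from the 20 with the widest excess over the controls. C1s, a protease that starts the classical complement pathway, had 35.2, 93.0 and 582 (lowest, median, highest) in insulin-treated rats, 114, 220 and 716 in diabetic rats and 51.2, 113 and 151 in controls. Serping1, which encodes the inhibitor of that protease, had 69.0, 90.9 and 577 in insulin-treated rats, 176, 323 and 786 in diabetic rats and 62.6, 163 and 226 in controls. Psmb8, a subunit of the immunoproteasome, fell in insulin-treated relative to diabetic rats (-0.86, limma, adjusted p = 0.0443), as did Gbp2, an interferon-induced GTPase (-1.56, adjusted p = 0.0187), and Tnfrsf1a, a receptor of tumor necrosis factor (-1.35, adjusted p = 0.0103). With the lens covariate none of these 3 passed, with -0.45 for Psmb8 (adjusted p = 0.640), -0.92 for Gbp2 (adjusted p = 0.474) and -0.91 for Tnfrsf1a (adjusted p = 0.335). Of the same 20 genes, Hspb1 (-2.16, adjusted p = 0.0175) and Tagln2 (-1.12, adjusted p = 0.0132) also fell in insulin-treated relative to diabetic rats. Neither passed with the lens covariate. Of all tested probes, 3.93% fell in that comparison. Gbp2 was dim, with signals of 5.42, 24.9 and 45.5 (lowest, median, highest) in insulin-treated rats. Diabetic rats had 32.8, 71.9 and 119, and controls had 14.4, 23.1 and 47.7. Its lowest insulin-treated signal lay under the floor, so the size of its fall depends on that floor. The insulin-treated rats probably did not carry Gbp2 past the detection filter, so its fall is not independent of that filter.

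Spp1, which encodes osteopontin, a ligand of Cd44, had a mean log2 signal of 7.80 ± 0.78 in insulin-treated rats, 8.15 ± 1.34 in diabetic rats and 7.49 ± 0.33 in controls (SD, n = 7, 5 and 7), with a difference of 0.66 between diabetic and control rats (SE 0.45, adjusted p = 0.419). Fgf2 had 18.7, 31.4 and 60.4 in insulin-treated rats, 19.7, 35.9 and 77.3 in diabetic rats and 13.3, 23.6 and 45.6 in controls, and Edn2, an endothelin, had 44.2, 78.7 and 152 in insulin-treated rats, 31.8, 79.2 and 136 in diabetic rats and 35.4, 44.1 and 74.2 in controls. Neither passed an adjusted p of 0.05 in any comparison. The 20 genes were picked for their excess over the controls, so their p-values here are not independent of that choice. Tagln2, an actin-binding protein, was the only one of them past an adjusted p of 0.05 between diabetic and control rats (1.06, SE 0.25, adjusted p = 0.0373). Of all tested probes, 2.79% passed there. With the lens covariate Tagln2 had 0.86 (adjusted p = 0.0970). What the 5 rats have in common beyond these signals was not tested.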
